A study of Mus musculus with 12 samples.

Results

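Bcar3 and 9 genes for proteins that work beside its product at focal adhesions were followed in primary mouse hepatocytes treated with TGF-β1. The 10 genes were Bcar3, Sh2d3c, Bcar1, Nedd9, Src, Ptk2, Pxn, Crk, Zyx and Vcl. They were selected by name, with the change of Bcar3 and the levels and changes of the others on these arrays already known, so their values at control, 20 min, 2 h and 4 h are given as a description with no test. A gene was measured where the probe table pairs a probe set (the group of probes that the array summarizes to 1 value) with that gene symbol alone. Of the 10 genes, 8 had such a probe set, 1 each, among 21789 such probe sets for 19938 symbols in a table of 35556 probe sets. No value is given for Nedd9 and Ptk2, which were not paired with a probe set of a single symbol, and they were not analysed here.

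The hepatocytes came from male C57BL/6 mice, were freed by collagenase and were kept on collagen in a serum-free medium that was exchanged 1 h before stimulation. Expression was measured on 12 Affymetrix Gene 1.0 ST arrays, 3 each for the untreated control and for 20 min, 2 h and 4 h of 1 ng/mL recombinant TGF-β1. The study calls the 3 arrays of a group biological replicates, but the labels do not say whether the replicates came from separate animals. The p-values therefore measure only the scatter left among these samples after time point and replicate number are fitted. Untreated cells were collected at the start only, so TGF-β1 and the added hours in culture cannot be told apart. All values are log2 signals, and a log2 change of 1 is a doubling.

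Focal adhesions are the sites where integrins, the cell surface receptors for extracellular matrix, are joined to actin filaments. On integrin binding, focal adhesion kinase (the product of Ptk2) and Src phosphorylate the scaffold p130Cas, the product of Bcar1, and the phosphorylated sites bind the adaptor Crk, which recruits activators of the small GTPases Rac1 and Rap1. Bcar3 belongs to the NSP family, whose members bind the C-terminal end of Cas proteins, and it raises Src activity towards p130Cas. Paxillin, zyxin and vinculin are structural partners on the matrix side and the actin side of the same complex. TGF-β is known for driving epithelial cells, hepatocytes among them, towards a spread and motile state in which such adhesions are more prominent.

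The promoters are shown for the 3 members with the largest changes at 4 h (Bcar3, Src and Bcar1) and for 2 actin-linked members in which a further motif was found (Zyx and Vcl). Each is the run of 250 bases before a RefSeq transcript start, 5′ to 3′ on the strand of the gene, in GRCm38.p6. Bcar3 lies on the plus strand at chr3:122419507-122419756, Src on the plus strand at chr2:157424043-157424292, Bcar1 on the minus strand at chr8:111743850-111744099, Zyx on the plus strand at chr6:42349578-42349827 and Vcl on the plus strand at chr14:20929148-20929397. Capitals mark matches on either strand to CAGAC (read GTCTG on the other strand), the letters SMAD proteins can bind, to TGAGTCA, the letters of the AP-1 factors, and to the CArG box of serum response factor.
Bcar3: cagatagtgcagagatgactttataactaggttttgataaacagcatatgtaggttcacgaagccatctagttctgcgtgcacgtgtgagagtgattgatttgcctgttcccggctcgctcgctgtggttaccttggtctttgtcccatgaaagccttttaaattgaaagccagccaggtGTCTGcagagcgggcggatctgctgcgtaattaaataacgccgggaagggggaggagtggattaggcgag
Src: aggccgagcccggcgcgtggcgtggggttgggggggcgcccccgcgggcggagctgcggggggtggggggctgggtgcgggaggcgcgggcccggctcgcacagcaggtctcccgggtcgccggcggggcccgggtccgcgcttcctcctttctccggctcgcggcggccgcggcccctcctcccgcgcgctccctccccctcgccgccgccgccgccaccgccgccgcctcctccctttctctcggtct
Bcar1: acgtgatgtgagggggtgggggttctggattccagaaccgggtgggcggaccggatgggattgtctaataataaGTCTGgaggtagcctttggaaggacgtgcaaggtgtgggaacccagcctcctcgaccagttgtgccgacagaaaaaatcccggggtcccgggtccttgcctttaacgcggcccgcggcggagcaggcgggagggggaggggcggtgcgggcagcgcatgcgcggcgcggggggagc
Zyx: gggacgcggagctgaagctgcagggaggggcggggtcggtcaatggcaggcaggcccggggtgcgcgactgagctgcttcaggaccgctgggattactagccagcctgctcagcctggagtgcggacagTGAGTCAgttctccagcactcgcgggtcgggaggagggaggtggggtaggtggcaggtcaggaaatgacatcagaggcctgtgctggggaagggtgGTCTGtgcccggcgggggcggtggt
Vcl: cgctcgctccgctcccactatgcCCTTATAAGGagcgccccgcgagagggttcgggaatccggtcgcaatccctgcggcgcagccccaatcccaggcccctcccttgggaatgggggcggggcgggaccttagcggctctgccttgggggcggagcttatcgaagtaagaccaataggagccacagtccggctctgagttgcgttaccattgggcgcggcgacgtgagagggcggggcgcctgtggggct
In the windows shown, GTCTG stood 70 to 66 bases before the start in Bcar3 and 176 to 172 before it in Bcar1. It stood 25 to 21 bases before the start in Zyx, and the Src window had no match. The Src and Zyx windows begin past the RefSeq gene starts (chr2:157423906 and chr6:42349511), so the bases before those gene starts were not read. Bcar3 and Bcar1 each had a further window, not shown, before another transcript start (chr3:122483319-122483568 and chr8:111732137-111732386). Neither of these further windows had a match. TGAGTCA occurred in Zyx alone of the members, and the CArG box in Vcl alone. RefSeq gave 10 windows for 8 of the 10 genes (none for Pxn and Ptk2), and 6 of the 10 windows held CAGAC, against 42.2% of all 32851 windows of this length. TGAGTCA was present in 4.46% and the CArG box in 1.47% of all windows. CAGAC and TGAGTCA share no overlapping match in these windows, and a match describes the letters only, not a bound site.

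Bcar3, on chromosome 3, had the largest change of the 8 genes. Its signal in replicates 1, 2 and 3 was 7.99, 8.37 and 8.58 in untreated cells, 8.22, 8.51 and 8.50 at 20 min, 8.16, 8.73 and 8.68 at 2 h, and 8.94, 9.41 and 9.13 at 4 h. All 3 arrays at 4 h lay above all other 9 arrays, whereas the 20 min and 2 h arrays overlapped with the untreated ones. Against the untreated array of the same replicate number, the 4 h arrays were higher by 0.95, 1.03 and 0.55, and the limma estimate was 0.84 ± 0.09 (SE), a 1.80-fold higher signal. The corresponding estimates were 0.10 at 20 min and 0.21 at 2 h, both with the same SE of 0.09. Most of the change therefore lay between 2 h and 4 h, where it was 0.64 ± 0.09, with 0.78, 0.68 and 0.45 in the 3 replicates. Among all 21789 probe sets, Bcar3 ranked 37 from the top for the change at 4 h. In these bulk samples, more RNA per cell and a larger share of the cells that express a gene cannot be told apart.

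**Figure D1:**
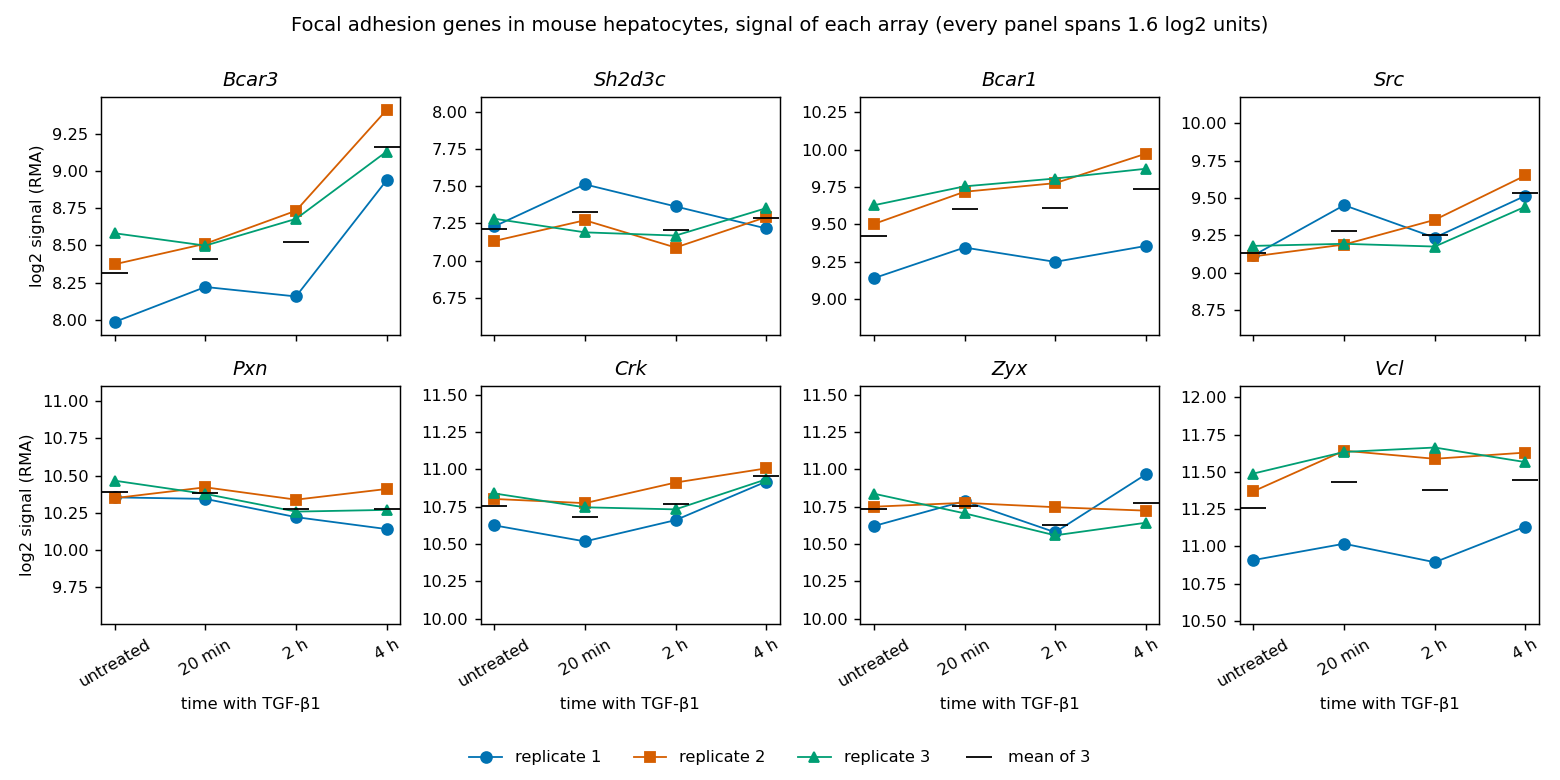
Log2 signal (y axis, every panel spanning the same number of log2 units) of the 8 measured genes on each of the 12 arrays, by time with TGF-β1 (x axis), with coloured lines joining the arrays of 1 replicate number and black bars for the mean of 3. Bcar3 is highest at 4 h in each replicate, and replicate 1 is the lowest of the 3 at every time in Bcar3, Bcar1, Crk and Vcl.

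Sh2d3c, on chromosome 2, encodes the other NSP adaptor of the set, a relative of Bcar3 that also binds Cas proteins. Its signal was 7.23, 7.13 and 7.28 in untreated cells, 7.51, 7.27 and 7.19 at 20 min, 7.36, 7.09 and 7.17 at 2 h, and 7.22, 7.29 and 7.35 at 4 h. The groups overlapped at each time, and the replicates did not move together. The estimate at 4 h was 0.07 ± 0.09, against 0.84 ± 0.09 for Bcar3. The mean signal of Sh2d3c, 7.26, was close to 7.23, the median of all probe sets tested.

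Bcar1, on chromosome 8, encodes p130Cas, the scaffold to which Bcar3 binds. Its signal was 9.14, 9.50 and 9.63 in untreated cells, 9.34, 9.72 and 9.75 at 20 min, 9.25, 9.78 and 9.81 at 2 h, and 9.35, 9.97 and 9.87 at 4 h. The groups overlapped, since replicate 1 was low in all of them, but within a replicate number every treated array was above its untreated one. The difference at 4 h was 0.22, 0.47 and 0.24 in the 3 replicates. The estimates were 0.18 at 20 min, 0.19 at 2 h and 0.31 at 4 h, each ± 0.07. The step between 2 h and 4 h was 0.12 ± 0.07, against 0.64 ± 0.09 for Bcar3.

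Src, on chromosome 2, encodes the tyrosine kinase that phosphorylates p130Cas. Its signal was 9.11, 9.11 and 9.18 in untreated cells, 9.45, 9.19 and 9.19 at 20 min, 9.23, 9.35 and 9.17 at 2 h, and 9.51, 9.65 and 9.44 at 4 h. The 4 h arrays lay above all untreated arrays and above all 2 h arrays, and replicate 1 at 20 min was the single earlier array within their range. The difference at 4 h was 0.40, 0.54 and 0.26, with an estimate of 0.40 ± 0.08, a 1.32-fold higher signal. At 20 min and 2 h the estimates were 0.14 and 0.12, both ± 0.08. The step between 2 h and 4 h was 0.28, 0.30 and 0.27 in the 3 replicates, the narrowest spread among the 8 genes for that step.

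Crk, on chromosome 11, encodes the adaptor that binds phosphorylated p130Cas and paxillin. Its signal was 10.62, 10.80 and 10.84 in untreated cells, 10.52, 10.77 and 10.75 at 20 min, 10.66, 10.91 and 10.73 at 2 h, and 10.92, 11.01 and 10.93 at 4 h. The 4 h arrays were above all untreated arrays, by a narrow margin. In the 3 replicates the difference was -0.11, -0.03 and -0.09 at 20 min, and 0.29, 0.21 and 0.09 at 4 h. All replicates were thus lower at the first time and higher at the last, with estimates of -0.08 and 0.20, both ± 0.07.

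Pxn, on chromosome 5, encodes paxillin, a scaffold that binds focal adhesion kinase, vinculin and Crk. Its signal was 10.35, 10.35 and 10.47 in untreated cells, 10.34, 10.42 and 10.38 at 20 min, 10.22, 10.34 and 10.26 at 2 h, and 10.14, 10.41 and 10.27 at 4 h. Pxn was the single member with a negative estimate at 4 h, -0.12 ± 0.07, with -0.21, 0.06 and -0.20 in the replicates. At 2 h it was lower in all 3 replicates, also by 0.12 ± 0.07, and the 2 h arrays lay just below the untreated ones.

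Zyx, on chromosome 6, encodes zyxin, a LIM protein that joins adhesions under tension and helps actin assemble there. Its signal was 10.62, 10.75 and 10.84 in untreated cells, 10.79, 10.78 and 10.71 at 20 min, 10.58, 10.75 and 10.56 at 2 h, and 10.97, 10.72 and 10.64 at 4 h. Replicate 1 at 4 h was the highest array, and the replicates went in opposite directions, with differences of 0.35, -0.03 and -0.19. The estimate at 4 h was 0.04 ± 0.09.

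Vcl, on chromosome 14, encodes vinculin, which couples talin to actin. Its signal was 10.91, 11.37 and 11.49 in untreated cells, 11.02, 11.64 and 11.63 at 20 min, 10.89, 11.59 and 11.66 at 2 h, and 11.13, 11.63 and 11.57 at 4 h. Replicate 1 was low throughout, so the groups overlapped at every time. Within a replicate number the 4 h arrays were higher by 0.22, 0.26 and 0.08. The estimates of 0.18 at 20 min, 0.13 at 2 h and 0.19 at 4 h, each ± 0.07, differed by less than their SEs.

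**Figure D2:**
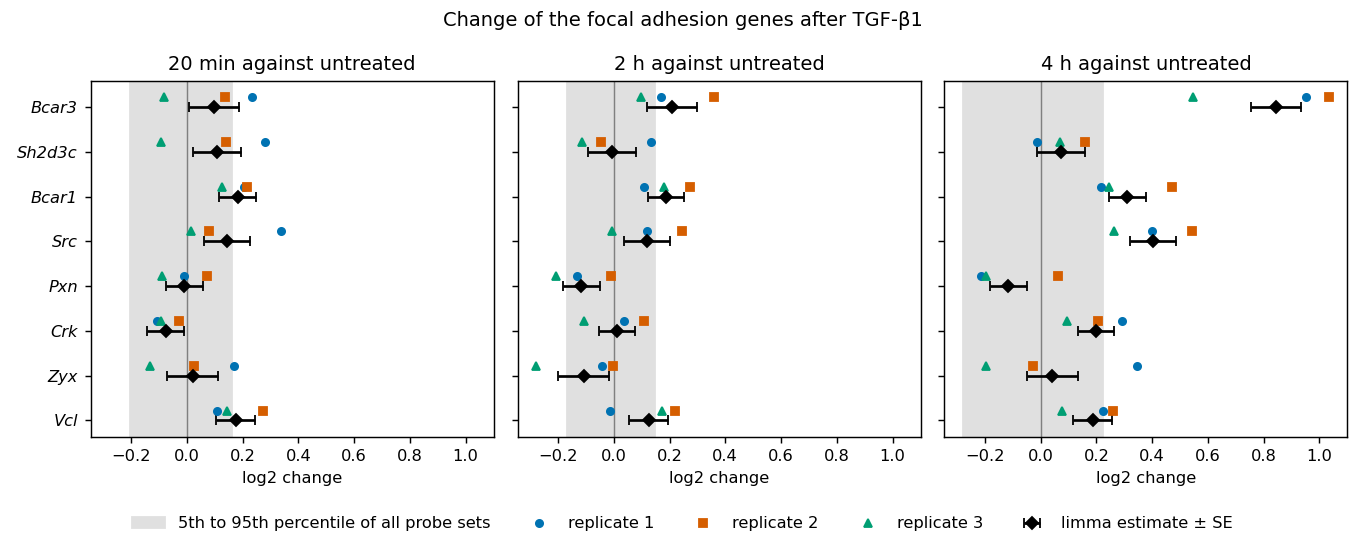
Log2 change against untreated cells (x axis) of the 8 measured genes (y axis) at 20 min, 2 h and 4 h, with coloured marks for the 3 replicate differences, black diamonds for the limma estimate ± SE, and the grey band from the 5th to the 95th percentile of all probe sets. At 4 h Bcar3, Src and Bcar1 lie above the band.

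Side by side at 4 h, the 8 changes ran from -0.12 (Pxn) to 0.84 (Bcar3), with a median of 0.19 beside 0.02 over all probe sets. At 20 min the median of the 8 was 0.10 and at 2 h 0.07, beside 0.00 and 0.01 over all probe sets. The central 90% of all probe sets lay between -0.28 and 0.22 at 4 h, so Bcar3, Src and Bcar1 were outside it and the other 5 genes inside. Bcar1, Bcar3 and Src, 3 of the 8 genes, had an adjusted p under 0.05 and a higher signal at 4 h, where 1.57% of all probe sets did, and none of the 8 had a lower one, where 3.02% of all did. As the genes were selected on this contrast, nothing is read from these counts, and none of the 8 passed when the replicate number was left out of the fit. None of the 8 passed the stricter limit of an adjusted p under 0.01 with at least a doubling or halving, which 0.0964% of all probe sets passed. Between 4 h and 2 h, where 0.0780% of all probe sets passed an adjusted p under 0.05 in either direction, Bcar3 alone of the 8 did. The changes of the 8 were known when they were selected, so nothing is read from this call either. Against untreated cells, limma called 0 of 21789 probe sets at 2 h (0%, with 1369 at an unadjusted p under 0.05) and 0 at 20 min (0%, with 1843), the 8 genes included.

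Counted by replicate, 5 of the 8 genes (Bcar3, Bcar1, Src, Crk and Vcl) were higher in 3 of 3 replicates at 4 h, beside 18.2% of all probe sets, and none was lower in 3 of 3, beside 17.4%. At 2 h the count was 2 higher (Bcar3 and Bcar1), beside 11.0%, and 2 lower (Pxn and Zyx), beside 11.4%. At 20 min it was 3 higher (Bcar1, Src and Vcl), beside 14.5%, and 1 lower (Crk), beside 17.1%. The 4 h arrays lay wholly above the untreated arrays in 3 genes (Bcar3, Src and Crk), beside 5.43% of all probe sets, and wholly below them in none, beside 5.58%. These counts too come from the values the genes were selected on. They show that Bcar1 was the member whose 3 replicates were higher at each time.

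The closest pairs over the arrays were Bcar3 with Src, Bcar1 with Src and Bcar3 with Crk. With the mean of each replicate number subtracted, Pearson's r over the 12 arrays was 0.92 for Bcar3 with Src, 0.89 for Bcar1 with Src, 0.85 for Bcar3 with Crk and 0.82 for Bcar1 with Bcar3. Crk had a lower value with Bcar1 (0.46), and Vcl followed Bcar1 (0.75) more than Bcar3 (0.57). Pxn ran against Bcar3 (-0.45), and Sh2d3c was nearly unrelated to it (0.17). The 12 arrays share 4 time points and 3 replicates, so these values are a description.

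**Figure D3:**
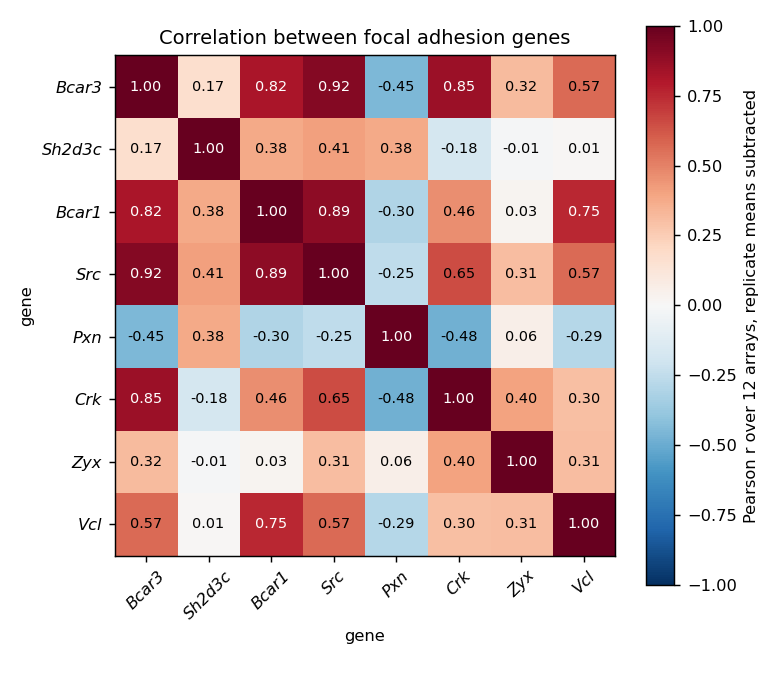
Pearson's r between each pair of the 8 measured genes (both axes) over 12 arrays after the mean of each replicate number was subtracted, on a colour scale from -1 (blue) to 1 (red). Bcar3, Bcar1 and Src have values from 0.82 to 0.92 with each other, Bcar3 with Crk has 0.85, and Pxn has negative values with Bcar3 (-0.45) and Crk (-0.48).

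By the same measure, the 5 probe sets of single symbols most like Bcar3 were Akap13 (r = 0.993), Mical2 (0.990), Adcy9 (0.990), Dhx32 (0.988) and Arhgef5 (0.984). Of all probe sets, 0.633% had an r above 0.9. Akap13 encodes a protein that anchors protein kinase A, Mical2 an enzyme that oxidizes actin, Adcy9 an adenylate cyclase, Dhx32 a helicase-like protein and Arhgef5 a guanine nucleotide exchange factor. Their changes at 4 h were 0.55 ± 0.07 for Akap13, 1.09 ± 0.10 for Mical2, 0.87 ± 0.08 for Adcy9, 0.54 ± 0.08 for Dhx32 and 0.28 ± 0.06 for Arhgef5. Their changes at 2 h were smaller, from 0.03 for Arhgef5 to 0.30 for Adcy9. As the 5 were picked for their likeness to Bcar3 over these arrays, this shared time course follows from the selection.

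Around the 10 genes, the pathway was followed in 58 further measured genes in 6 groups by role. At 4 h, 6 of the 58 (10.3%) were higher and 2 (3.45%) lower by limma at an adjusted p under 0.05 over all probe sets, against 1.57% and 3.02% of all probe sets, and 50 did not pass. The shares of all probe sets count every signal level and are not matched to the levels of the 58. When probe sets with a mean signal under the median were left out, limma called 363 of 10895 higher and 729 lower. Of the 46 pathway genes kept in that filtered fit, 5 were higher and 2 lower. The median change of the 58 was 0.09. Limma called 0 of the 58 at 20 min, at 2 h, and between 4 h and 2 h. The list was drawn up with earlier results of these data known. The main fit compares arrays within a replicate number. Each of its 8 calls among the 58 was lost without that block, without replicate 2 and without replicate 3. With the block as a random effect, Fyn, Ptpn11, Tns3 and Ajuba were lost as well. With all 35556 probe sets tested, Fyn, Ptpn11 and Fermt1 were lost. Fyn and Ptpn11 were also lost without replicate 1, and Ptpn11 with each array centred on its median. The highest adjusted p over the alternatives lay between 0.108 for Actn1 and 0.996 for Ptpn11.

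Among Cas proteins, their kinases and phosphatases, 2 of 12 rose and 1 fell. Ptk2b, which encodes Pyk2, the relative of focal adhesion kinase, had 9.50, 10.07 and 9.84 at 4 h, against 9.11, 9.08 and 9.33 in untreated cells. It rose by 0.63 ± 0.10 (limma, adjusted p = 0.00628), with no overlap of the groups. Fyn, a kinase of the Src family, had 7.13, 7.16 and 7.09 at 4 h, against 7.79, 7.38 and 7.53 in untreated cells. It fell by 0.44 ± 0.09 (limma, adjusted p = 0.0214), while Src was at 0.40 ± 0.08. The Fyn signals at 4 h were below 7.23, the median of all probe sets tested. Its arrays at 20 min had 7.14, 7.21 and 7.10, close to those at 4 h, and at 2 h they had 7.44, 7.30 and 7.09. Ptpn11, which encodes the phosphatase SHP2, rose by 0.27 ± 0.06 (limma, adjusted p = 0.0330), with groups that overlapped.

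Among talins, kindlins and tensins, which link integrin tails to actin or activate integrins, 2 of 8 rose. Tns3, for tensin 3, had 9.45, 9.91 and 9.83 at 4 h, against 8.63, 9.17 and 9.33 in untreated cells, a rise of 0.68 ± 0.09 (limma, adjusted p = 0.00330). Fermt1, for kindlin-1, had 6.55, 6.94 and 7.10 at 4 h, against 6.16, 6.23 and 6.01 in untreated cells, a rise of 0.73 ± 0.13 (limma, adjusted p = 0.0120). Fermt1 signals were below 7.23, the median of all probe sets tested.

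Among the zyxin family and actin polymerization genes 1 of 9 rose, and among the vinculin partners 1 of 5 rose and 1 fell. Ajuba, a LIM protein of the zyxin family, had 9.36, 10.23 and 10.10 at 4 h, against 8.84, 9.33 and 9.54 in untreated cells, a rise of 0.66 ± 0.11 (limma, adjusted p = 0.00957), whereas Zyx itself was at 0.04 ± 0.09. Actn1, for the actin cross-linker α-actinin-1, had 10.93, 11.12 and 11.00 at 4 h, against 10.41, 10.36 and 10.54 in untreated cells, a rise of 0.58 ± 0.09 (limma, adjusted p = 0.00644). Sorbs3, for vinexin, a vinculin-binding adaptor, had 7.93, 7.66 and 7.59 at 4 h, against 8.48, 8.22 and 8.05 in untreated cells, and fell by 0.53 ± 0.07 (limma, adjusted p = 0.00310). None of the 12 Crk partners and small GTPases and none of the 12 genes of the paxillin family and its partners passed the test at 4 h, with medians of 0.06 and 0.10.

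**Figure D4:**
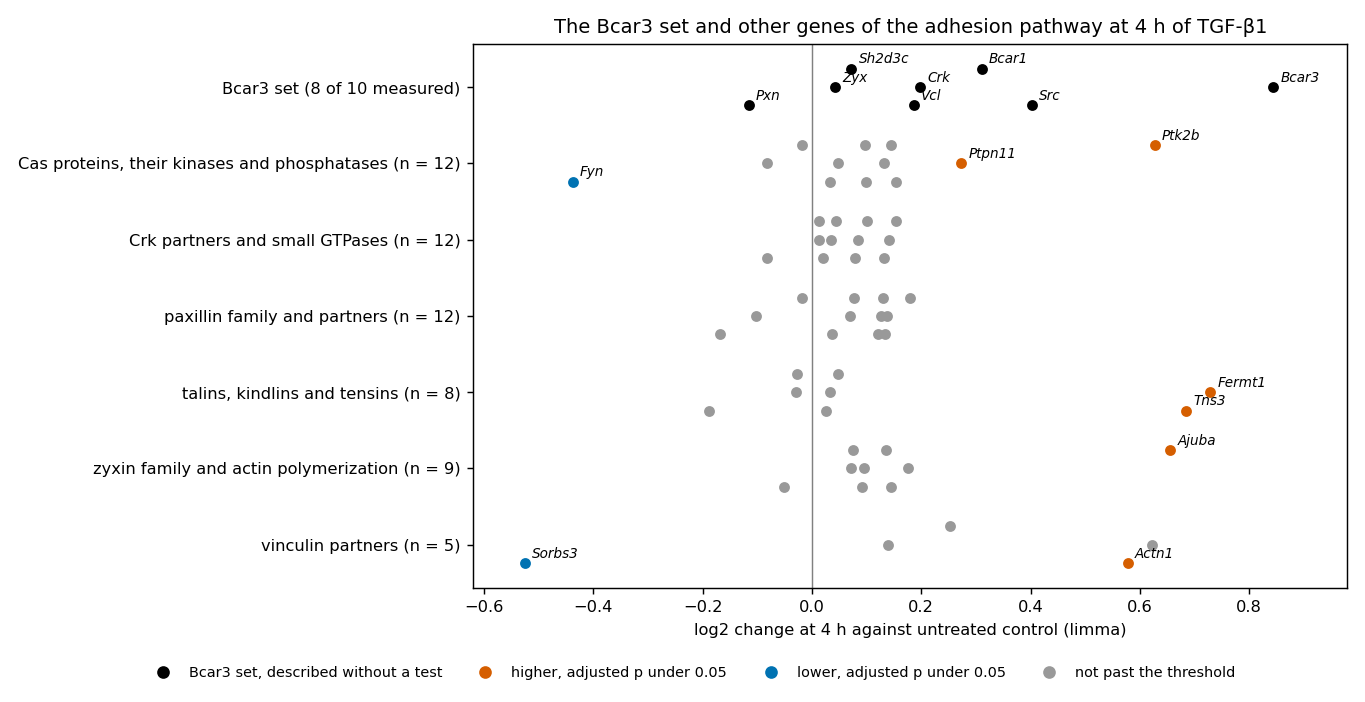
Log2 change at 4 h against untreated cells (x axis, limma estimate) of the 8 measured genes of the Bcar3 set (black, no test) and of 58 other adhesion genes in 6 groups by role (y axis), orange for higher and blue for lower at an adjusted p under 0.05, grey for the rest. Bcar3 has the highest change shown, 0.84, and the coloured genes lie in 4 of the 6 groups.

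Markers of cell types other than hepatocytes were measured beside these changes, since such cells also carry adhesion genes. The 12 array medians ran from 6.82 to 6.93, and the mean signal of 6 hepatocyte markers was 13.77 to 13.80 at 4 h, against 13.81 to 13.91 in untreated cells, with 1 of the 6 lower by limma at an adjusted p under 0.05 (Tat) and none higher. Of 11 Kupffer cell and macrophage markers, 5 were lower at 4 h (Lyz2 -0.82, C1qb -0.74, Csf1r -0.57, C1qc -0.46 and Adgre1 -0.44), and their mean signal was 7.29 to 7.35, against 7.64 to 7.74 in untreated cells, with no overlap. Among 7 endothelial markers 1 was lower (Lyve1), with 7.24 to 7.76 at 4 h against 7.31 to 7.86, and among 9 stellate cell and fibroblast markers 1 was lower (Dcn), with 6.98 to 7.38 against 7.05 to 7.28. None of 5 cholangiocyte markers passed, with 7.04 to 7.13 at 4 h against 6.67 to 6.97 in untreated cells. Of these, Sox9 was at 1.19 ± 0.34 (limma, adjusted p = 0.0751) and the defining marker Krt19 at 0.03 ± 0.06. No marker signal stood at 0, as log2 array signals have no zero, and the part of other cells in the changes of the Bcar3 set was not tested.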

How the data were processed

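The deposited values are log2 signals per transcript cluster probe set. Per the submitters' processing notes, the authors used Affymetrix Power Tools and its RMA method, whose versions are not given in the sources used here. RMA corrects background, equalizes the distributions of the arrays and summarizes probes, and so can hide a shift common to most genes. For its own analysis the study names FARMS summarization and a ComBat batch adjustment. The paper gives a strong batch effect among its mouse hepatocyte arrays as the reason for that adjustment. ComBat was not run here, and the replicate number was a factor in the fit. The labels do not say whether the replicate numbers match that batch. Columns were matched to samples by their labels, and 0 columns of other samples were present. The 20 min group follows the labels. No 2 arrays held identical values.

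Of 35556 probe sets, 21789 were paired with 1 symbol, 1621 with several, and 12146 were not listed in the probe table. Limma 3.58.1 in R 4.3.3 was fitted to the 21789 with 2 factors, the time and the number of the replicate, as the study describes (6 residual and 5.39 prior degrees of freedom), with no filter on low values, and p-values were Benjamini-Hochberg adjusted over all of them. A gene in the lists was represented by its probe set with the highest mean signal. The script was tested on simulated data. Replicate numbers were used to pair the samples. Deviations from the group means correlated at 0.56 to 0.88 between samples of 1 number in all 18 pairs. In the 36 pairs of different numbers they correlated at -0.81 to 0.72, so the ranges overlapped. Such deviations cancel out within a group, so an unlike replicate makes the others alike. The check therefore does not show that each number marks matched samples. The number of arrays limits the precision.

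The members, the pathway list and the markers were chosen with earlier results of these data known. The text names all members, up to 4 called genes per role group, and the 5 genes most like Bcar3. Promoters and coordinates are from RefSeq (GRCm38.p6). Alternatives were no block, a random block, all probe sets, a filter at the median level, quantile normalization, centring, a trended and robust prior, the mean over probe sets of a gene, and leaving out each replicate.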

Additional observations from a re-analysis of the deposited data

Results flagged for a closer look

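Crk, the adaptor that binds phosphorylated p130Cas, had estimates of opposite sign at 2 time points. They were -0.08 at 20 min, close to its SE in size, and 0.20 at 4 h, both ± 0.07. Of all probe sets, 17.1% were lower in 3 of 3 replicates at 20 min and 18.2% higher in 3 of 3 at 4 h. Every Crk replicate was above its untreated array at 4 h (by 0.29, 0.21 and 0.09) and below it at 20 min (-0.11, -0.03 and -0.09). The change at 4 h exceeded that at 20 min by 0.27 on the log2 scale. This difference was not tested, since Crk is a member chosen with its values known, and both changes share the untreated arrays.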

How the results depend on the processing

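The change of Bcar3 at 4 h ran from 0.75 to 0.99 over the 11 alternatives, most of which alter the test and not the estimate. The sign turned in 5 small changes: Zyx at 4 h (-0.11 to 0.16) and 20 min (-0.05 to 0.10), Pxn at 20 min (-0.05 to 0.03), Sh2d3c at 2 h (-0.08 to 0.04) and Crk at 2 h (-0.04 to 0.07), on leaving out a replicate and, for Pxn, also with quantile normalization. With the replicate block, limma called 343 probe sets higher and 657 lower at 4 h, 6 and 2 of the pathway list, and 21 past a doubling at an adjusted p under 0.01. With no replicate block these were 12, 19, 0, 0 and 2, and none of the members passed. With the block as a random effect they were 89, 136, 3, 1 and 9 (Bcar3 and Src passed). Over all 35556 probe sets, 101 were higher and 222 lower, with 4 of the pathway list higher, 1 lower and 0 past a doubling (Bcar3 passed). Leaving out 1 replicate gave 16 to 492 higher, 16 to 493 lower, 0 to 5 and 0 to 1 of the pathway list, and 0 to 35 past a doubling. Without replicate 2 or without replicate 3 Bcar3 alone of the members passed. Over the 3 fits that leave out a replicate, 0 to 14 were higher and 0 to 29 lower at 2 h, and 0 to 3 higher and 0 to 7 lower at 20 min, the highest values each without replicate 1. A trended and robust prior gave 1 higher and 8 lower at 2 h, 1 higher and 3 lower at 20 min, and 3 of the pathway list between 4 h and 2 h. Fewer arrays remain without a replicate, and the cause of the differences was not tested for any setting.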
